A study of Nasonia vitripennis with 79 samples.

Results

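CYP4AB9, CYP4AB12, CYP4AB14 and CYP4AB21 are cytochrome P450 genes of the parasitoid wasp Nasonia vitripennis, and they make up 4 of the 14621 genes in the deposited count table and 4 of its 11 genes with a CYP4AB symbol. They were chosen by symbol, with results of these data known: CYP4AB9 and CYP4AB14 had been named for their differences between female heads, and the values that brought in CYP4AB12 and CYP4AB21 are not given in the sources used here. Their levels and differences in most comparisons are therefore a description without a test, and p-values for them are given only for male heads, a comparison in which the earlier account of these data named none of them. All wasps, diploid females and haploid males included, came from the WOM line, an induced neo-polyploid line, and were sampled 1 day after emergence as heads or as abdomens. Females were triploid or diploid and came from generations F14 and F2. Males were diploid or haploid and came from generations F15 and F3. The 15 groups used held 74 of the 79 libraries, with 4 in F14 triploid female abdomens and 5 in every other group. The other 5 libraries are labelled F2 diploid female abdomens and were left out, as set out below. The labels do not say whether libraries of a group came from separate cultures, and the spread behind each p-value may therefore be technical.

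Cytochromes P450 are haem enzymes that insert an oxygen atom into small, mostly fatty molecules, using electrons that a reductase passes on from NADPH. The CYP4 branch is large in insects. Its CYP4G enzymes make the cuticular hydrocarbons that waterproof the body and carry recognition signals, and other CYP4 enzymes act on fatty acids, pheromones, hormones or plant and insecticide compounds. The CYP4AB subfamily is known from ants and wasps, and in the fire ant Solenopsis invicta CYP4AB genes were described as more abundant in workers than in queens. The substrates of the Nasonia enzymes are not annotated in the sources used here.

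Library totals lay between 12.6 and 94.98, in units of 1e+06 expected counts. The eye opsin gene Lop1 lay between 529 and 15667 TPM (the deposited transcript level, scaled to gene length and library total) in heads. In the abdomens used it was at most 5.92 TPM, except for 12.7 TPM in library D116 and 261 TPM in library D119 of the F15 diploid males. The libraries labelled F2 diploid female abdomens held 2121 to 5222 TPM, against their label, and were not used. F2 triploid female abdomens also stood apart. There 3 muscle markers summed to 382 to 466.2 TPM, against 846 to 3522 TPM in the other 9 female abdomens. In the same order, 4 neuronal markers summed to 1.94 to 3.32 TPM, against 7.86 to 23.6 TPM. The oenocyte markers CYP4G43 and CYP4G44 summed to 298 to 370.4 TPM, against 700.2 to 2321 TPM. The germ plasm markers oskar and nanos, at 1259 to 1465 TPM against 301 to 1293 TPM, overlapped. Among F2 triploid female heads, libraries D31 and D32 had 2082 and 2549 TPM of 4 summed neuronal markers, against 954 to 1531 TPM in the other 3 libraries.

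The 4 genes had 4 different patterns, and statements on overlap between groups rest on TPM unless another scale is named. CYP4AB14 was far lower in females in both tissues, with at most 132 TPM in the 34 female libraries, against 489 to 1953 TPM in the 40 male libraries. CYP4AB9 averaged at least 126 TPM in every male group except F15 haploid male abdomens, at 25.9 TPM, and its female group means ran from 0.470 to 156 TPM. CYP4AB12 was low in male heads and uneven in female heads. CYP4AB21 was low in heads of both sexes and in female abdomens and reached 160 TPM in male abdomens.

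**Figure D1:**
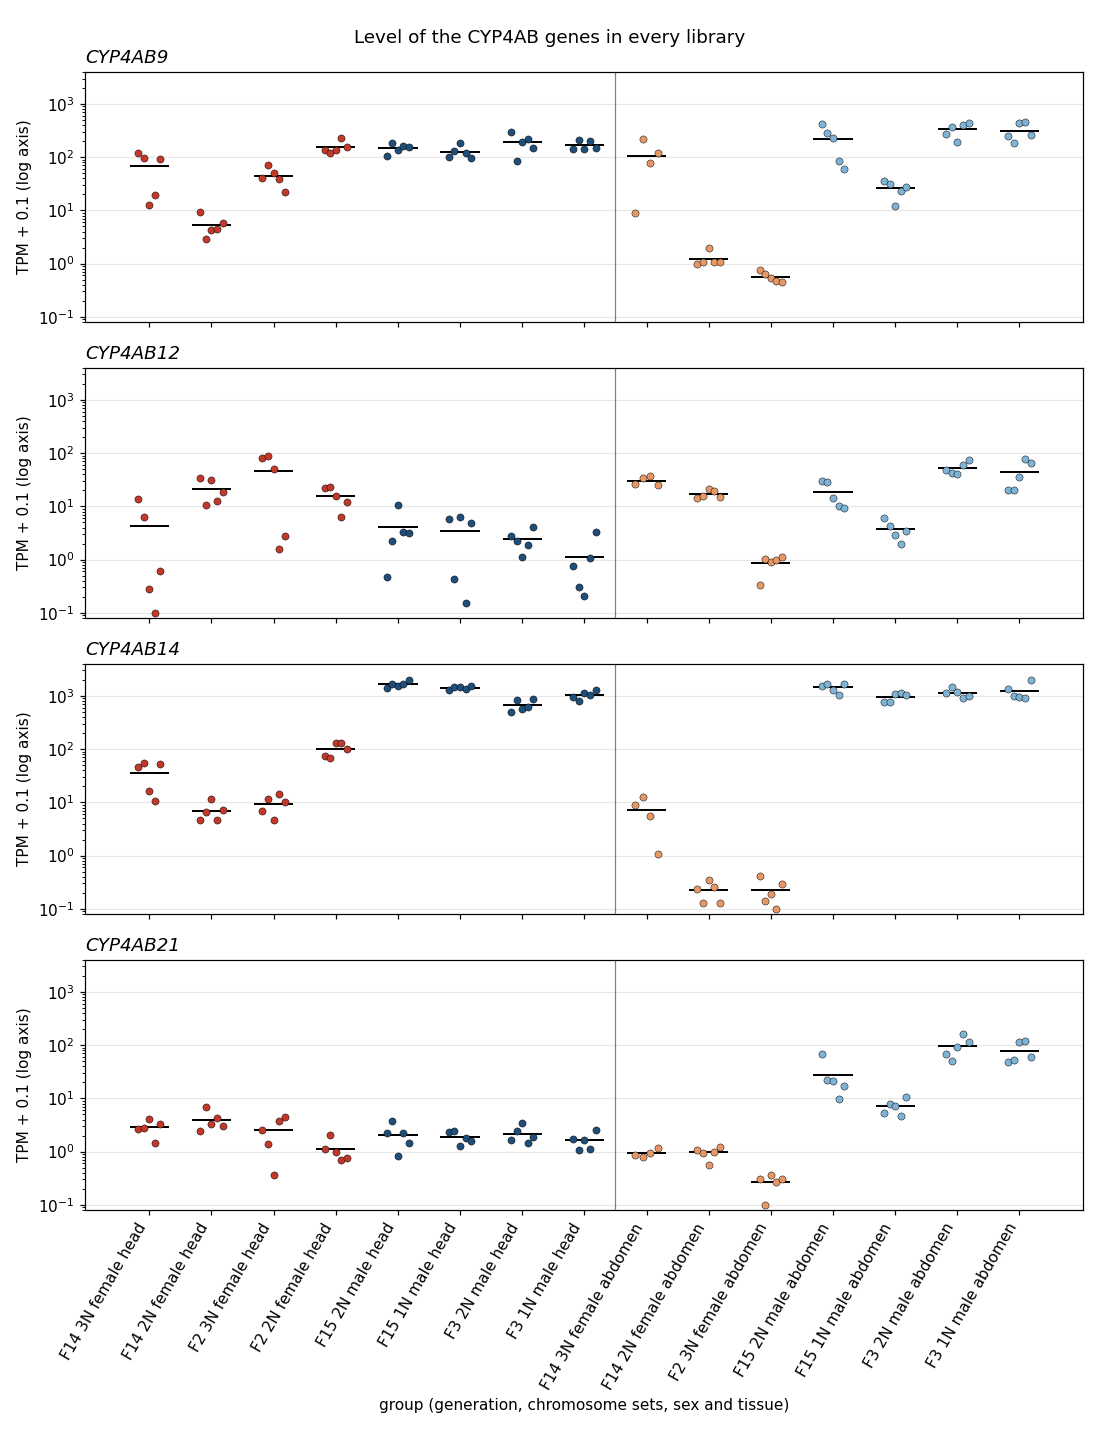
Level of each gene in every library, as TPM + 0.1 on a log axis, with 1 panel per gene and 1 column per group. Points are libraries, black lines are group means, and the vertical line parts heads from abdomens. CYP4AB14 lies at or below 132 TPM in every female library and between 489 and 1953 TPM in every male library.

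Ranked by group mean, CYP4AB14 led in F15 diploid male heads at 1649 ± 199 TPM (SD, n = 5), followed by F15 diploid male abdomens at 1446 ± 274 TPM and F15 haploid male heads at 1415 ± 103.2 TPM. The 8 male groups formed a chain in which each overlapped the next, down to F3 diploid male heads at 678 ± 170 TPM. Then came a gap: F2 diploid female heads averaged 100.4 ± 29.4 TPM, and the ranges did not overlap. F14 triploid female heads followed at 36.1 ± 21.1 TPM. The lowest groups, F2 triploid and F14 diploid female abdomens, averaged 0.128 ± 0.129 and 0.122 ± 0.0936 TPM and overlapped each other.

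CYP4AB9 was highest in F3 diploid male abdomens at 331 ± 97.1 TPM (SD, n = 5) and F3 haploid male abdomens at 316 ± 118.99 TPM. From there to F15 haploid male abdomens, twelfth in order at 25.9 ± 9.03 TPM, every group overlapped the next. The 3 groups below were each separate from their neighbours: F14 diploid female heads averaged 5.23 ± 2.46 TPM, F14 diploid female abdomens 1.13 ± 0.414 TPM and F2 triploid female abdomens 0.470 ± 0.121 TPM. CYP4AB12 was highest in F3 diploid male abdomens at 53.3 ± 14.5 TPM and lowest in F2 triploid female abdomens at 0.766 ± 0.308 TPM, and all neighbours in its order overlapped. CYP4AB21 had male abdomens in its first 4 places, at 97.05 ± 42.6 TPM in F3 diploids, 78.7 ± 34.9 TPM in F3 haploids, 27.6 ± 23.4 TPM in F15 diploids and 6.96 ± 2.34 TPM in F15 haploids. Its other 11 groups averaged at most 3.87 TPM, and among neighbours in its order only the lowest, F2 triploid female abdomens at 0.166 ± 0.0984 TPM, stood clear of the next.

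**Figure D2:**
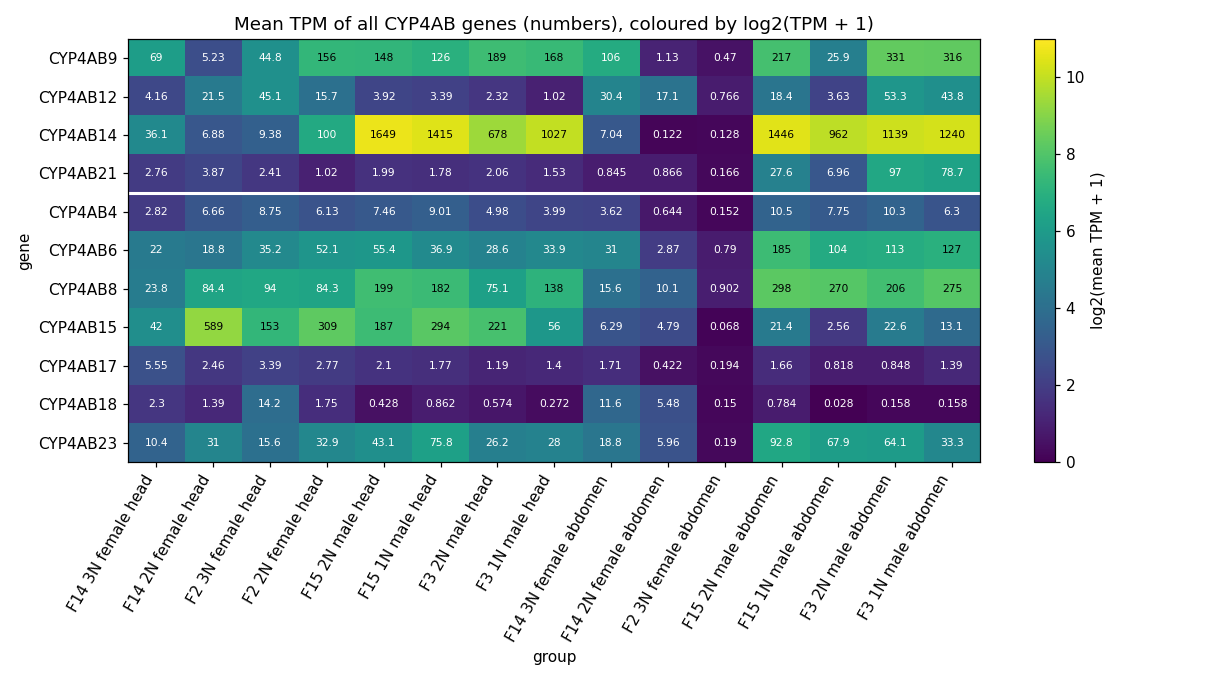
Mean TPM of all 11 CYP4AB genes in the 15 groups, printed in each cell and coloured by log2(TPM + 1), with CYP4AB9, CYP4AB12, CYP4AB14 and CYP4AB21 above the white line. CYP4AB14 is the brightest cell in all 8 male groups, CYP4AB15 in 3 female head groups, and the column of F2 triploid female abdomens is dark throughout.

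CYP4AB14 had the highest TPM of the 11 CYP4AB genes in all 8 male groups, at 55.2% to 71.8% of their summed level. In female heads the leading gene was CYP4AB9 in F14 triploids, at 69.0 of 221 TPM, and CYP4AB15 in the other 3 groups. CYP4AB15 reached 589 of 771 TPM in F14 diploid female heads, where CYP4AB9, CYP4AB12, CYP4AB14 and CYP4AB21 together made up 4.86% of the sum. In F2 triploid female abdomens all 11 genes summed to 3.98 TPM, against 233 TPM in F14 triploid and 49.4 TPM in F14 diploid female abdomens. These whole-organ libraries cannot tell fewer cells of a type from less RNA per cell.

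The first comparison asks how an added chromosome set goes with the level of these genes in female heads. CYP4AB9 and CYP4AB14 were higher in triploid than in diploid heads at F14 and lower at F2. At F14, CYP4AB9 had 12.5, 19.3, 93.9, 98.2 and 121 TPM in triploid heads, against 2.79, 4.15, 4.38, 5.58 and 9.27 TPM in diploid heads. All triploid libraries lay above all diploid ones, although D82B and D81 were well below the other 3 triploid libraries. At F2, CYP4AB9 had 22.4, 39.1, 40.8, 49.3 and 72.1 TPM in triploid heads, against 121, 135, 138, 157 and 228 TPM in diploid heads. Here all triploid libraries lay below all diploid ones. In these female head comparisons 29.7% of all genes were called at F14 and 42.4% at F2 (edgeR, adjusted p under 0.05). The fitted difference (edgeR log2 fold change of counts, triploid over diploid) was 4.16 ± 0.57 (SE) at F14 and −1.80 ± 0.51 at F2.

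CYP4AB14 had the same signs. At F14 it had 10.5, 16.5, 45.2, 53.1 and 55.3 TPM in triploid heads, against 4.50, 4.53, 6.62, 7.14 and 11.6 TPM in diploid heads. The lowest triploid library, D81, fell within the diploid range in TPM, although on TMM-scaled CPM (counts scaled to library size) the triploid heads had 12.2 to 54.2, against 2.82 to 6.81 in diploid heads. At F2 it had 4.49, 6.79, 10.1, 11.3 and 14.3 TPM in triploid heads, against 68.1, 74.0, 100.6, 128 and 132 TPM in diploid heads, with no overlap. Log2 fold changes were 2.89 ± 0.42 at F14 and −3.52 ± 0.43 at F2. Among the 4 female head groups both genes had their highest mean in F2 diploids and their lowest in F14 diploids. Set side by side as the F14 difference minus the F2 difference, the values were 5.96 ± 0.77 for CYP4AB9 and 6.41 ± 0.60 for CYP4AB14. In that difference 24.3% of all genes were called.

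CYP4AB12 ran the other way, with more spread. At F14 it had 0, 0.180, 0.520, 6.22 and 13.9 TPM in triploid heads, against 10.7, 12.7, 18.7, 30.8 and 34.7 TPM in diploid heads, and a single triploid library, D85, reached the diploid range. Its log2 fold change was −2.13 ± 1.05, and −3.16 without D85. At F2 it had 1.5, 2.67, 49.7, 81.98 and 89.8 TPM in triploid heads, against 6.10, 12.1, 15.6, 22.1 and 22.6 TPM in diploid heads. The 2 lowest triploid libraries were D32 and D31, the pair with high neuronal markers, and the other 3 triploid libraries lay above all diploid ones. The log2 fold change at F2 was 1.63 ± 1.01 with all libraries, 2.39 without D31 and D32, and 1.27 without D34. On log2(TPM + 1) it was smaller than each of these. CYP4AB21 had 1.35 to 4.02 TPM in F14 triploid heads, against 2.31 to 6.87 TPM in F14 diploid heads, and 0.270 to 4.42 TPM in F2 triploid heads, against 0.610 to 1.92 TPM in F2 diploid heads. Its ranges overlapped in both generations. At F14 its log2 fold change was 0.19 ± 0.44 on counts and −0.35 on log2(TPM + 1), so its direction depended on the scale. At F2 it was 1.18 ± 0.45, and 0.30 without D31 and D32.

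**Figure D3:**
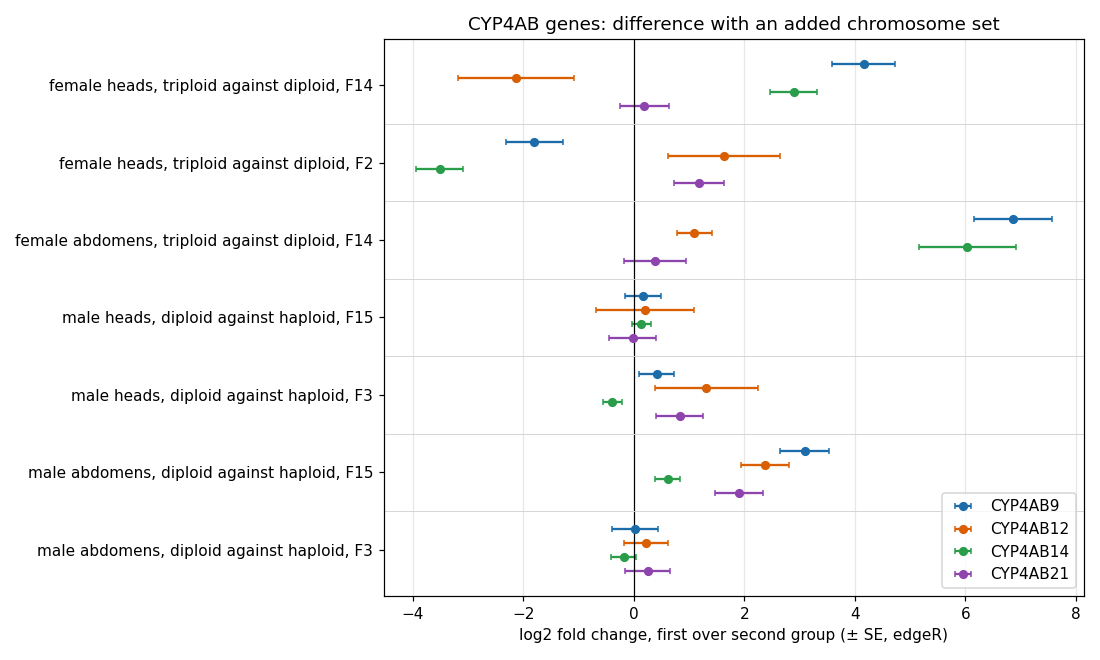
Log2 fold change on counts (edgeR, ± SE) of each gene with an added chromosome set, triploid over diploid in females and diploid over haploid in males. In female heads CYP4AB9 and CYP4AB14 lie right of 0 at F14 (4.16 and 2.89) and left of it at F2 (−1.80 and −3.52), and in male heads all values lie between −0.39 and 1.32.

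Markers of other tissues also differed between these groups, not all in the direction of CYP4AB9 and CYP4AB14. The 4 epidermal cuticle markers apd-1, apd-3, CPR37 and CPR48 summed to 1334 to 12883 TPM in F14 triploid heads, against 12.5 to 102.9 TPM in F14 diploid heads, and to 110.6 to 2290 TPM in F2 triploid heads, against 4551 to 14417 TPM in F2 diploid heads. The 3 muscle markers Tm1, Tm2 and Zasp66 summed to 1352 to 7592 TPM in F14 triploid heads, against 1242 to 1825 TPM in F14 diploid heads, and to 318 to 705 TPM in F2 triploid heads, against 2838 to 7658 TPM in F2 diploid heads. The oenocyte markers CYP4G43 and CYP4G44 summed to 1.14 to 9.39 TPM in F14 triploid heads, against 11.7 to 121 TPM in F14 diploid heads, and to 4.59 to 53.4 TPM in F2 triploid heads, against 33.4 to 94.8 TPM in F2 diploid heads. No marker of these lists was at 0 in every library of a head group. The 4 neuronal markers summed to 663 to 1351 TPM in F14 triploid heads, against 912 to 1499.7 TPM in F14 diploid heads, and to 954 to 2549 TPM in F2 triploid heads, against 567 to 728 TPM in F2 diploid heads, without overlap at F2. Lop1 lay between 529 and 4668 TPM in F14 triploid heads, against 4103 to 10912 TPM in F14 diploid heads, and between 2473 and 15667 TPM in F2 triploid heads, against 7282 to 7954 TPM in F2 diploid heads. Of the F14 triploid libraries with the least CYP4AB9 and CYP4AB14, D82B had the lowest cuticle sum of its group, 1334 TPM, and D81 the highest, 12883 TPM, with the lowest Lop1, 529 TPM. The part of these tissues in the result was not tested.

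Among the 7 other CYP4AB genes, the F14 comparison called 1 higher and 2 lower in triploid heads (edgeR, adjusted p under 0.05), where 29.7% of 11127 genes were called. CYP4AB15 fell to 42.0 TPM in triploid heads, against 589 TPM in diploid heads (log2 fold change −3.39 ± 0.91, edgeR adjusted p = 0.0087, n = 5 each). CYP4AB8 averaged 23.8 TPM in triploid heads and 84.4 TPM in diploid heads (−1.52 ± 0.52, edgeR adjusted p = 0.032), a call that ended without D95, D93, D84, D82B, D81 or D83B (edgeR adjusted p = 0.054 to 0.091). CYP4AB17 averaged 5.55 TPM in triploid heads and 2.46 TPM in diploid heads (1.91 ± 0.51, edgeR adjusted p = 0.0082), and was not called on log2(TPM + 1) (limma adjusted p = 0.069). At F2, 42.4% of all genes were called, but of these 7 only CYP4AB18 was, at 14.2 TPM in triploid heads and 1.75 TPM in diploid heads (2.97 ± 0.96, edgeR adjusted p = 0.018), and without D34 it was not (edgeR adjusted p = 0.078).

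Of all 38 P450 genes other than CYP4AB9, CYP4AB12, CYP4AB14 and CYP4AB21, 32 could be tested in female heads. At F14, 3 were higher and 14 lower in triploids, with a median log2 fold change of −1.06, beside −0.03 over all genes. On log2(TPM + 1) those counts were 1 and 22, and the median of all genes moved to −0.49. Of the CYP6 and CYP9 genes, families known for breaking down toxins, 6 of 11 and 5 of 9 fell. CYP6AQ4 had 14.7 TPM in triploid heads and 103.5 TPM in diploid heads (−2.36 ± 0.39, edgeR adjusted p = 0.00019), and CYP9AG3 had 27.4 TPM in triploid heads and 214 TPM in diploid heads (−2.46 ± 0.43, edgeR adjusted p = 0.00032). The higher ones with the smallest p were CYP9AG8P, a pseudogene by its symbol (1.67 ± 0.25, edgeR adjusted p = 7.6e-05), and CYP336B1 (0.87 ± 0.21, edgeR adjusted p = 0.0035), which was not called on log2(TPM + 1) (limma adjusted p = 0.38). At F2, 3 were higher and 2 lower, with a median of 0.07 beside 0.05 over all genes. CYP6CK13P and CYP6AS31 were higher in triploids (1.91 ± 0.41 and 0.91 ± 0.23, edgeR adjusted p = 0.001 and 0.0033). CYP314A1, which in Drosophila makes the active moulting hormone 20-hydroxyecdysone, was lower (−1.10 ± 0.23, edgeR adjusted p = 0.00076). CYP6CK6 was too (−1.37 ± 0.53, edgeR adjusted p = 0.043), but leaving out any 1 library other than D34 ended that call (edgeR adjusted p = 0.054 to 0.089). Without D31 and D32 the F2 counts were 7 higher and 1 lower.

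In female abdomens the same comparison was possible at F14. CYP4AB9, CYP4AB14 and CYP4AB12 were higher in triploid abdomens, with no overlap between the groups in TPM, where 37.8% of all genes were called. On TMM-scaled CPM CYP4AB12 overlapped, at 22.3 to 50.6 in triploid and 15.996 to 24.1 in diploid abdomens. CYP4AB9 had 9.03, 77.8, 121 and 218 TPM in triploid abdomens, against 0.870, 0.970, 0.970, 0.990 and 1.87 TPM in diploid abdomens. CYP4AB14 had 0.960, 5.55, 8.98 and 12.7 TPM in triploid abdomens, against 0.0300, 0.0300, 0.140, 0.160 and 0.25 TPM in diploid abdomens, which stand for 2 to 16 counts per library. CYP4AB12 had 24.8, 25.8, 33.9 and 37.04 TPM in triploid abdomens, against 14.2, 14.97, 15.5, 19.6 and 21.1 TPM in diploid abdomens. The spread among triploid libraries was wide for CYP4AB9, lowest in D90A, and for CYP4AB14, lowest in D89. Log2 fold changes were 6.86 ± 0.70 for CYP4AB9, 6.04 ± 0.88 for CYP4AB14 and 1.10 ± 0.31 for CYP4AB12. CYP4AB21 had 0.690 to 1.08 TPM in triploid abdomens, against 0.460 to 1.14 TPM in diploid abdomens, and its log2 fold change of 0.39 ± 0.56 on counts was −0.01 on log2(TPM + 1).

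Here 37.8% of 10739 genes were called. Of the 7 other CYP4AB genes 4 were called higher and 0 lower by edgeR, and the same counts held by DESeq2 and at an unadjusted p under 0.05. CYP4AB6 averaged 30.99 TPM in triploid abdomens and 2.87 TPM in diploid abdomens (3.66 ± 0.48, edgeR adjusted p = 9.2e-05, n = 4 and 5). CYP4AB4 averaged 3.62 TPM in triploid abdomens and 0.644 TPM in diploid abdomens (2.71 ± 0.49, edgeR adjusted p = 0.00096), and CYP4AB17 and CYP4AB23 rose by 2.24 ± 0.63 and 2.03 ± 0.59 (edgeR adjusted p = 0.013 and 0.015), the second of which was not called without D86 (edgeR adjusted p = 0.088) or on log2(TPM + 1) (limma adjusted p = 0.065). Of 35 testable other P450 genes 11 were higher and 0 lower by edgeR (1 lower at an unadjusted p under 0.05 and 1 by DESeq2), with a median log2 fold change of 1.18, beside 0.03 over all genes. Without library D89 18 were higher. The germ plasm markers oskar and nanos summed to 301 to 823 TPM in triploid abdomens, against 955 to 1293 TPM in diploid abdomens. The muscle markers summed to 1437 to 3522 TPM in triploid abdomens, against 846 to 989 TPM in diploid abdomens, and the cuticle markers to 9.80 to 120 TPM, against 0.510 to 1.44 TPM. The oenocyte markers summed to 1143 to 2321 TPM in triploid abdomens, against 700.2 to 1367 TPM in diploid abdomens, and their part and that of the other tissues was not tested.

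In male heads none of the 4 genes passed the test between diploids and haploids in either generation. At F15, 0.109% of 11010 genes were called, 12 in number, with 1001 at an unadjusted p under 0.05, and of the 4 genes 0 were called, 0 at an unadjusted p under 0.05 and 0 by DESeq2. CYP4AB14 had 1413, 1542, 1637, 1708 and 1946 TPM in diploid heads, against 1284, 1326, 1461, 1487 and 1516 TPM in haploid heads (log2 fold change 0.14 ± 0.17, edgeR adjusted p = 0.95, n = 5 each). CYP4AB9 had 104.99, 137, 153, 163 and 184 TPM in diploid heads, against 94.8, 100.2, 122, 131 and 183 TPM in haploid heads (0.17 ± 0.32, edgeR adjusted p = 0.98). CYP4AB12 and CYP4AB21 were at 0.20 ± 0.88 and −0.02 ± 0.42, both with an edgeR adjusted p of 1, and their signs changed without D114 (to −0.62 and 0.15). All 4 overlapped between the groups.

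At F3, 16.2% of 11010 genes were called and again 0 of the 4 by edgeR or DESeq2, with 1, CYP4AB14, at an unadjusted p under 0.05. CYP4AB14 had 489, 569, 621, 825 and 884 TPM in diploid heads, against 788, 952, 1017, 1109 and 1270.5 TPM in haploid heads. Its log2 fold change was −0.39 ± 0.17 (edgeR adjusted p = 0.12, n = 5 each; DESeq2 adjusted p = 0.099). The call turned on the scale and on library D13: on log2(TPM + 1) the value was −0.62 with a limma adjusted p of 0.02, and without D13 it was −0.60 with an edgeR adjusted p of 0.0061. In D13 CYP4AB14 had 816 TMM-scaled CPM, the highest of the 5 diploid libraries, yet 569 TPM, below the middle of the 5. CYP4AB9 had 85.1, 147, 195, 219 and 301 TPM in diploid heads, against 140.4, 142, 148, 201 and 209 TPM in haploid heads (0.42 ± 0.32, edgeR adjusted p = 0.37). CYP4AB12 was at 1.32 ± 0.93 and CYP4AB21 at 0.83 ± 0.42 (edgeR adjusted p = 0.33 and 0.17), the second of these moving to 0.04 without D13 and CYP4AB9 to 0.10, while CYP4AB12 was at 2.34 without D4. Cuticle markers were high in these heads, with sums of 34149 to 113484 TPM in diploids, highest in D13, against 18369 to 92442 TPM in haploids. The haploid heads include libraries D1 and D1A, and the labels do not say whether these came from the same animals. Both were counted as separate samples.

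The difference between generations in the male-head comparison, F15 minus F3, was 0.53 ± 0.24 for CYP4AB14 (edgeR adjusted p = 0.21), and 0.75 without D13 (edgeR adjusted p = 0.021). It was −0.25 ± 0.45 for CYP4AB9, −1.12 ± 1.28 for CYP4AB12 and −0.85 ± 0.60 for CYP4AB21 (edgeR adjusted p = 0.75, 0.61 and 0.41). Without D13 CYP4AB9 was at 0.08 and CYP4AB21 at −0.03, and without D4 CYP4AB12 was at −2.14. Here 3.57% of all genes were called. Of 6 testable other CYP4AB genes at F3, CYP4AB15 rose to 221 TPM in diploid heads, against 56.0 TPM in haploid heads (2.38 ± 0.56, edgeR adjusted p = 0.0088, and 0.063 when only the groups compared were fitted), and CYP4AB8 fell to 75.1 TPM, against 138 TPM in haploid heads (−0.76 ± 0.14, edgeR adjusted p = 0.0021). At F15 0 of the 6 were called by edgeR, with 1 at an unadjusted p under 0.05 and 1 by DESeq2. Of 35 testable other P450 genes 2 were higher and 5 lower at F3, which became 1 and 12 without D13. At F15 0 were called by edgeR, with 4 at an unadjusted p under 0.05 and 1 by DESeq2.

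In male abdomens the generations differed. At F15, CYP4AB9 had 59.5, 84.5, 227, 286 and 427 TPM in diploid abdomens, against 11.96, 23.1, 27.9, 30.96 and 35.6 TPM in haploid abdomens. CYP4AB12 had 9.08, 10.0, 14.5, 28.8 and 29.6 TPM in diploid abdomens, against 1.89, 2.79, 3.34, 4.16 and 5.98 TPM in haploid abdomens. Neither gene overlapped between the groups, where 11.1% of all genes were called. CYP4AB21 had 9.83, 16.8, 20.7, 22.1 and 68.6 TPM in diploid abdomens, against 4.46, 5.15, 7.22, 7.57 and 10.4 TPM in haploid abdomens, where the lowest diploid library fell within the haploid range. CYP4AB14 had 1035 to 1704 TPM in diploid abdomens, against 752 to 1150.3 TPM in haploid abdomens, and overlapped. Log2 fold changes on counts were 3.09 ± 0.45 for CYP4AB9, 2.37 ± 0.43 for CYP4AB12, 1.90 ± 0.43 for CYP4AB21 and 0.62 ± 0.23 for CYP4AB14. That of CYP4AB21 was 1.25 without library D120.

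At F3 the same genes overlapped between the groups. CYP4AB9 had 193 to 433 TPM in diploid abdomens, against 181 to 451 TPM in haploid abdomens, CYP4AB12 40.7 to 75.5 TPM, against 20.1 to 76.3 TPM, and CYP4AB21 97.05 ± 42.6 TPM (SD, n = 5), against 78.7 ± 34.9 TPM. CYP4AB14 had 909 to 1480.2 TPM in diploid abdomens, against 924 to 1953 TPM in haploid abdomens. Log2 fold changes were 0.03 ± 0.41, 0.23 ± 0.40, 0.25 ± 0.41 and −0.18 ± 0.23 for CYP4AB9, CYP4AB12, CYP4AB21 and CYP4AB14, and 2 signs turned on 1 library (CYP4AB9 to −0.10 without D9 and CYP4AB14 to 0.05 without D6). The F15 difference minus the F3 difference was 3.07 ± 0.60 for CYP4AB9, 2.15 ± 0.58 for CYP4AB12, 1.65 ± 0.59 for CYP4AB21 (1.00 without D120) and 0.79 ± 0.32 for CYP4AB14, where 10.4% of all genes were called.

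Among F15 diploid male abdomens, the 3 libraries with the most CYP4AB9, D118, D119 and D120, also had 36.4, 168 and 35.3 TPM of summed cuticle markers. The other 2 diploid libraries had 2.83 and 3.43 TPM, and the haploid abdomens had 1.88 to 4.91 TPM. The oenocyte markers summed to 5265 to 10699 TPM in diploid abdomens, against 5944 to 11892 TPM in haploid abdomens, and the muscle markers to 1219 to 1739 TPM, against 1354 to 1807 TPM. The part of cuticle tissue in the differences was not tested. At F15, 11.1% of 11358 genes were called and, of the 6 testable other CYP4AB genes, CYP4AB6 alone, at 185 TPM in diploid and 104.4 TPM in haploid abdomens (0.89 ± 0.24, edgeR adjusted p = 0.023). The fit of only the groups compared called 0 of all genes there, CYP4AB6 included (0.90, edgeR adjusted p = 0.092), and leaving out D119, D120, D108, D109 or D110 also ended its call. Of 36 other P450 genes 2 were higher and 0 lower by edgeR, with 10 higher and 1 lower at an unadjusted p under 0.05 and 4 and 0 by DESeq2. At F3, 16.6% of genes were called. CYP4AB4 alone of the 6 was called, at 10.3 TPM in diploid and 6.30 TPM in haploid abdomens (0.68 ± 0.21, edgeR adjusted p = 0.03, and 0.075 when only the groups compared were fitted), and of the 36 other P450 genes 3 were higher and 12 lower in diploids.

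The same libraries were also compared between generations. In diploid female heads CYP4AB9 and CYP4AB14 were lower at F14 than at F2, by log2 fold changes of −5.32 ± 0.61 and −4.33 ± 0.45, with no overlap, where 19.4% of genes were called. In triploid female heads CYP4AB9 was at 0.63 ± 0.50 and CYP4AB14 at 2.08 ± 0.41, and both overlapped in TPM, although CYP4AB14 did not on TMM-scaled CPM, where 15.6% of genes were called. CYP4AB12 was at 0.12 ± 0.99 in diploid (−0.18 without D95) and −3.65 ± 1.11 in triploid female heads. CYP4AB21 was at 1.23 ± 0.45 in diploid heads, where the F14 libraries lay above all F2 ones. In triploid heads CYP4AB21 was at 0.24 ± 0.44 (−0.03 without D33 and 1.15 without D31 and D32). These comparisons share their libraries with the ploidy comparisons and add no separate evidence.

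In haploid male abdomens CYP4AB9, CYP4AB12 and CYP4AB21 were lower at F15 than at F3 by nearly equal amounts. Their log2 fold changes were −3.50 ± 0.46, −3.49 ± 0.45 and −3.51 ± 0.46, and none overlapped. In diploid male abdomens they were −0.44 ± 0.41, −1.35 ± 0.41 and −1.86 ± 0.42, of which CYP4AB12 did not overlap between the generations. Without D120 CYP4AB21 was at −2.51 and CYP4AB9 at −0.80, and without D116 CYP4AB9 was at −0.20. The oenocyte markers summed to 5265 to 10699 TPM in F15 diploid, against 10441 to 18747 TPM in F3 diploid abdomens, and to 5944 to 11892 TPM in F15 haploid, against 4223 to 10362.5 TPM in F3 haploid abdomens, and their part was not tested. CYP4AB14 was at −0.27 ± 0.23 in haploid and 0.52 ± 0.23 in diploid abdomens and overlapped in both. Of the other CYP4AB genes 1 was higher at F15 in haploid abdomens and 2 in diploid abdomens, and 0 were lower by edgeR, DESeq2 or an unadjusted p under 0.05, where 29% and 35.4% of genes were called.

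In male heads CYP4AB14 was higher at F15 than at F3, with no overlap in diploids and none in haploids in TPM, by 1.00 ± 0.17 in diploids and 0.48 ± 0.17 in haploids, where 18.3% and 14.4% of genes were called. On TMM-scaled CPM the haploid heads overlapped, at 844.3 to 1094 at F15 and 634 to 849.0 at F3. CYP4AB9 was at −0.70 ± 0.32 in diploid (−0.37 without D13) and −0.45 ± 0.32 in haploid heads and overlapped. CYP4AB12 was at 0.58 ± 0.89 in diploid heads (−0.24 without D114) and 1.70 ± 0.94 in haploid heads (2.72 without D4). CYP4AB21 was at −0.77 ± 0.42 in diploid heads (0.04 without D13) and 0.08 ± 0.43 in haploid heads (−0.06 without D105). The cuticle markers summed to 855 to 10501 TPM in the 10 male head libraries of F15, against 18369 to 113484 TPM in the 10 of F3, and their part in the CYP4AB14 difference was not tested. In triploid female abdomens CYP4AB9, CYP4AB12, CYP4AB14 and CYP4AB21 were higher at F14 than at F2 (7.96 ± 0.77, 5.40 ± 0.37, 5.86 ± 0.92 and 2.51 ± 0.61). So were all 7 other CYP4AB genes by edgeR's test, where 75.1% of genes were called. The F2 libraries there are the ones that stood apart in their muscle and neuronal markers. They also had 298 to 370.4 TPM of the oenocyte markers, against 1143 to 2321 TPM in F14 triploid abdomens, and their part in the result was not tested.

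**Figure D4:**
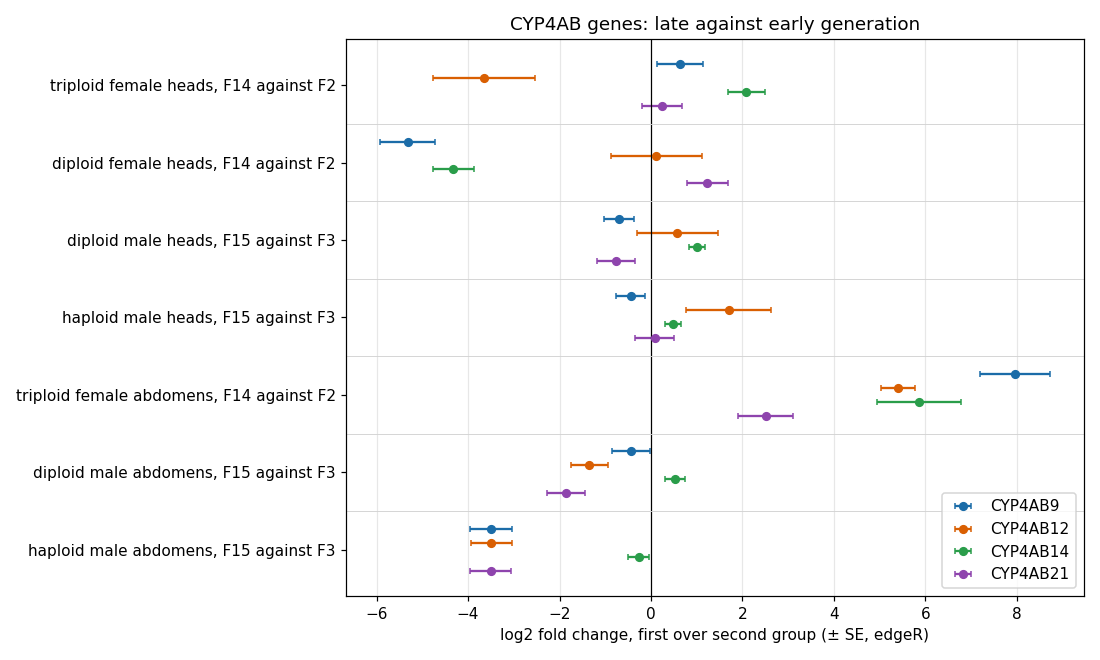
Log2 fold change on counts (edgeR, ± SE) of each gene between a later and an earlier generation, F14 over F2 in females and F15 over F3 in males. CYP4AB9, CYP4AB12 and CYP4AB21 lie together at about −3.50 in haploid male abdomens, and all 4 genes lie right of 0 in triploid female abdomens.

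Female and male groups always differed by a generation number as well, so sex and generation cannot be told apart. CYP4AB14 was lower in females in all 10 comparisons and its libraries never overlapped between the sexes. The share of all genes called was 9.08% and 9.73% for heads of F14 diploid females against F15 diploid and haploid males, 37.1% and 24.5% for those of F2 diploid females against F3 diploid and haploid males, and 33.3% and 23.5% for those of F14 and F2 triploid females against diploid males. In abdomens it was 80.6% and 78.6% for F14 diploid females against F15 diploid and haploid males, and 69.6% and 87.9% for F14 and F2 triploid females against diploid males. In heads its log2 fold change, female over male, was between −8.00 ± 0.42 (F14 diploid females against F15 diploid males) and −2.68 ± 0.33 (F2 diploid females against F3 diploid males). In abdomens it was between −13.59 ± 0.67 and −7.84 ± 0.58, the second of these in F14 triploid females against F15 diploid males. CYP4AB12 was higher in diploid female heads than in male heads of the next generation number, without overlap in TPM. It had 10.7 to 34.7 TPM in F14 diploid female heads, against 0.370 to 10.7 TPM in F15 diploid and 0.05 to 6.10 TPM in F15 haploid male heads. Log2 fold changes of F14 diploid females were 2.41 ± 1.00 over F15 diploid males (3.18 without D114) and 2.62 ± 1.02 over F15 haploid males, and those of F2 diploid females were 2.86 ± 1.03 over F3 diploid and 4.18 ± 1.12 over F3 haploid males (5.18 without D4). On TMM-scaled CPM F14 diploid females and F15 diploid males overlapped, the lowest female library at 7.35 and the highest male library, D114, at 8.55. Markers of other tissues differed in some of these comparisons as well, and their part was not tested. In heads the cuticle markers summed to 4551 to 14417 TPM in F2 diploid females, against 34149 to 113484 TPM in F3 diploid males. They summed to 12.5 to 102.9 TPM in F14 diploid females, against 855 to 10501 TPM in F15 diploid males. F14 triploid female heads, at 1334 to 12883 TPM, overlapped those F15 males. In abdomens the oenocyte markers summed to 298 to 2321 TPM in females, against 4223 to 18747 TPM in males, and oskar and nanos to 301 to 1465 TPM in females, against 1 to 17.9 TPM in males.

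CYP4AB9 in heads depended on the female group. It was −4.89 ± 0.52 in F14 diploid females over F15 diploid males, without overlap, and −0.28 ± 0.44 in F2 diploid females over F3 diploid males (0.05 without D13), with overlap. In triploid female heads it was −0.77 ± 0.44 at F14 over F15 diploid males (−0.45 without D82B) and −2.05 ± 0.45 at F2 over F3 diploid males. CYP4AB21 differed between the sexes mainly in abdomens, where it was −5.13 ± 0.46 in F14 diploid females over F15 diploid males and −5.04 ± 0.52 in F14 triploid females over the same males, without overlap in either. Of the 7 other CYP4AB genes, 5 were lower and 1 higher in abdomens of F14 diploid females than of F15 diploid males by edgeR's test, where 80.6% of all genes were called. The other P450 genes leaned the same way, with 32 of 38 lower and 3 higher and a median log2 fold change of −4.08, beside −0.02 over all genes. The higher CYP4AB gene was CYP4AB18, at 5.48 TPM in females and 0.784 TPM in males (2.64 ± 1.03, edgeR adjusted p = 0.021). DESeq2 did not call it (2.26, adjusted p = 0.10), nor did edgeR with only the groups compared (adjusted p = 0.065) or without D99 (adjusted p = 0.061). CYP4AB8 averaged 10.1 TPM in those females and 298 TPM in those males (−4.98 ± 0.36, edgeR adjusted p = 1.1e-13).

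**Figure D5:**
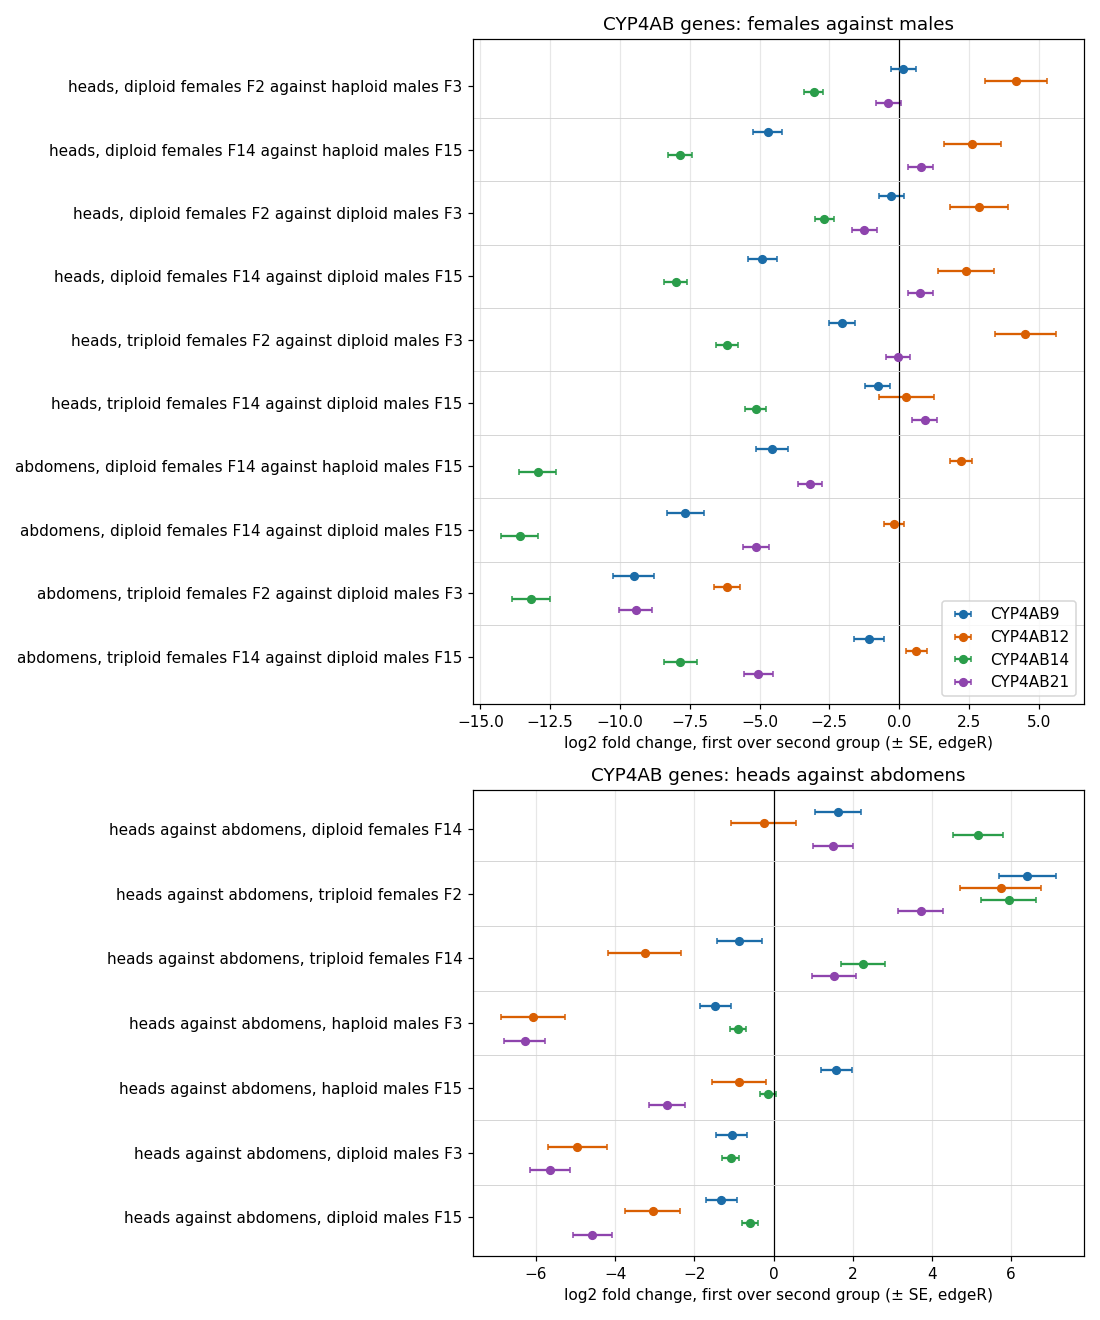
Log2 fold changes on counts (edgeR, ± SE) of each gene in females over males (upper panel) and in heads over abdomens (lower panel). CYP4AB14 lies left of 0 in every comparison of the sexes, and CYP4AB21 lies right of 0 in female and left of 0 in male comparisons of heads with abdomens.

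CYP4AB21 differed between heads and abdomens in opposite directions in the sexes. In females CYP4AB14 and CYP4AB21 were higher in heads than in abdomens in all 3 comparisons, where 66.9%, 74.9% and 84.5% of genes were called in F14 triploids, F14 diploids and F2 triploids. In F14 triploids CYP4AB14 overlapped between the tissues in TPM and on TMM-scaled CPM (12.2 to 54.2 in heads, 0.946 to 12.9 in abdomens). Log2 fold changes, head over abdomen, were 2.26 ± 0.56, 5.16 ± 0.63 and 5.94 ± 0.70 for CYP4AB14 and 1.53 ± 0.55, 1.49 ± 0.50 and 3.72 ± 0.57 for CYP4AB21, in F14 triploids, F14 diploids and F2 triploids. The F2 triploid value of CYP4AB21 was 2.86 without D31 and D32, and its abdomens there held 0 to 11 counts per library. In males CYP4AB21 was lower in heads in all 4 comparisons, where 62.6% to 67.3% of genes were called (66.2% in F3 diploids and 66.8% in F3 haploids), between −6.28 ± 0.52 in F3 haploids and −2.69 ± 0.46 in F15 haploids. CYP4AB12 was lower in male heads too, by −6.07 ± 0.81 and −4.96 ± 0.75 in F3 haploids and diploids and −3.05 ± 0.69 in F15 diploids, while in F15 haploids it was −0.88 ± 0.68 (−0.54 to −1.19 without 1 library). CYP4AB9 was between −1.48 ± 0.39 and −1.05 ± 0.39 in 3 male comparisons and 1.59 ± 0.39 in F15 haploids, whose abdomens were its lowest male group. CYP4AB14 was −0.60 ± 0.21 in F15 diploid and −0.14 ± 0.21 in F15 haploid males on counts, but 0.20 and 0.57 on log2(TPM + 1), so its direction there depended on the scale.

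By RefSeq gene order (assembly Nvit_psr_1.1, used for names and neighbours only) no CYP4AB gene had another as its direct neighbour. CYP4AB9 lies inside the span of LOC100117604, and CYP4AB14 inside that of LOC100122714. The sources used here do not say whether counting used strand, so reads of such pairs cannot be fully told apart. Group means of log2(TPM + 1) of CYP4AB9 and LOC100117604 had a Pearson r of 0.29 over 15 groups, and those of CYP4AB14 and LOC100122714 one of 0.71. LOC100122714 had group means between 38.3 and 505 TPM, and LOC100117604 between 4.18 and 28.6 TPM. The expected counts of all 4 CYP4AB genes, and those of LOC100117604 and LOC100122714, were whole numbers in every library (tolerance 1e-06). Of all expected counts, 17.8% were not.

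Across the 15 group means of log2 CPM, CYP4AB9 and CYP4AB14 had a Pearson r of 0.87, CYP4AB12 and CYP4AB21 one of 0.57, and CYP4AB12 and CYP4AB14 one of −0.03. The first value was not particular to that pair, since CYP4AB14 with CYP4AB8 and CYP4AB9 with CYP4AB6 also had 0.87. The points share tissues, sexes and generations, and r is given as a description. Among 10600 genes with at least 5 CPM in their highest group, the pattern most like that of CYP4AB21 was found in LOC100117239 (r = 0.99), LOC103317809 (0.99) and LOC100123488 (0.98). For CYP4AB9 it was found in LOC100680169 (0.96), LOC107981755 (0.96) and LOC100124083 (0.94), and by Spearman's rho LOC100678933, its direct neighbour, was among the first 3 (0.94). For CYP4AB14 the genes were LOC116417577 (0.96), LOC100115618 (0.94) and LOC100679680 (0.94). CYP4AB12 had looser matches, in LOC100679481 (0.89), LOC100119057 (0.87) and LOC100119841 (0.84).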

How the data were processed

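Poly(A) RNA of heads and abdomens was sequenced in 79 libraries. Expected counts per gene came as a table deposited by the authors (RSEM 1.3.1 after STAR 2.7.11a, per the submitters' processing notes), beside a deposited table of TPM values; the genome build and strand setting are not given in the sources used here. Every sample column was matched to its label. Expected counts were rounded, scaled by TMM and tested with edgeR 4.0.16 (R 4.3.3), whose quasi-likelihood test was fitted to all genes passing filterByExpr (minimum count 10, minimum total 15), with Benjamini-Hochberg adjustment over all genes and a threshold of 0.05. One-way fits held all groups of a sex and tissue, of a tissue, or of a sex. SE is the absolute log2 fold change over the square root of F. Alternatives were RLE scaling, no filter, limma 3.58.1 on log2(TPM + 1) and log2(TPM + 0.1), DESeq2 1.42.0, fits of only the groups compared, and leaving out libraries. On simulated data only the male-head fit was tested, by edgeR and DESeq2. Every simulated gene had the same spread setting, and the changed genes were not low in counts. Other fits, wider spreads and low counts were not covered.

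The members and lists were chosen with earlier results of these data known. Named were all CYP4AB genes, the 2 higher and 2 lower other P450 genes of smallest adjusted p in female heads, and the 3 genes of most similar pattern per member. The fat-body marker Vg was not used here. No sequences are shown.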

Additional observations from a re-analysis of the deposited data

Results flagged for a closer look

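Of 60 pairs of gene and group checked for a library standing apart, 5 had one, where chance gives about 1 in 20, or 3. CYP4AB9 reached 1.87 TPM in library D100 of F14 diploid female abdomens, above the other 4 at 0.870 to 0.990 TPM. CYP4AB12 reached 10.7 TPM in D114 of F15 diploid male heads and 3.14 TPM in D4 of F3 haploid male heads, and was lowest, at 0.230 TPM, in D40 of F2 triploid female abdomens. CYP4AB21 reached 68.6 TPM in D120 of F15 diploid male abdomens.

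Other values are differences between comparisons in which every library moved one way in one and the opposite way in the other. They were picked from 18 pairs of comparisons per gene. The share of all genes with such a reversal is not given here, so the list does not show whether these genes are unusual. These differences were not tested. For CYP4AB9 in female heads, the triploid-over-diploid log2 fold change at F14 exceeded that at F2 by 5.96. For the log2 fold change of heads over abdomens, CYP4AB21 differed by 6.07 between F14 diploid females and F15 diploid males, by 4.18 between F14 diploid females and F15 haploid males, by 6.10 between F14 triploid females and F15 diploid males, and by 9.37 between F2 triploid females and F3 diploid males. Between F2 triploid females and F3 diploid males, CYP4AB12 differed by 10.69 and CYP4AB14 by 7.03. CYP4AB12 differed by −8.99 between F14 and F2 triploid females. The values with F2 triploid females use their abdomens, which stood apart in muscle, neuronal and oenocyte markers. Those abdomens held 0 to 7 counts of CYP4AB14 and 0 to 11 of CYP4AB21 per library. In F2 triploid female heads CYP4AB12 had 1.5 and 2.67 TPM in D32 and D31, against 49.7 to 89.8 TPM in the other libraries.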

How the results depend on the processing

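No paired analysis was possible, because the labels do not say whether heads and abdomens came from the same wasps. In the ploidy comparisons of female heads and F14 female abdomens the signs of CYP4AB9, CYP4AB12 and CYP4AB14 did not change under any alternative run, and the cause of each change given here was not tested. On log2(TPM + 1) and log2(TPM + 0.1), CYP4AB21 turned to −0.35 and −0.45 in F14 female heads and to −0.0095 and −0.0012 in F14 female abdomens, and CYP4AB14 in heads over abdomens turned to 0.57 and 0.58 in F15 haploid and 0.20 and 0.20 in F15 diploid males. The median of all genes in F14 female heads moved to −0.49 and −0.59 on these scales. CYP4AB12 in F14 female heads was −4.16 with 0.1 added, CYP4AB14 there 2.05 with 1 added, and in F14 female abdomens CYP4AB9 was 5.01 with 1 added and CYP4AB14 2.53 and 4.64. CYP4AB21 in F2 female heads was 0.30 without D31 and D32. In F3 male heads CYP4AB14 was called on both TPM scales (1 of the 4 genes, −0.62 on each).

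Counts of other P450 genes also moved. In F2 female heads, 5 were higher by DESeq2 and 7 without D31 and D32, and 4 were lower by DESeq2, 4 on log2(TPM + 1) and 1 without D31 and D32. In F14 female heads 1 was higher and 22 lower on both TPM scales. In F3 male heads 1 was higher with RLE scaling, without a filter and on both TPM scales, 0 when only the groups compared were fitted, and 9 were lower on both TPM scales. In F15 male heads 1 was lower by DESeq2 and 2 when only the groups compared were fitted. In F14 female abdomens 1 was lower by DESeq2 and on both TPM scales. In male abdomens 5 were higher at F3 on log2(TPM + 0.1), and at F15 4 were higher by DESeq2, 0 when only the groups compared were fitted, and 1 lower on both TPM scales.

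Leaving out 1 library at a time gave 1 to 4 lower in F2 female heads, 1 to 3 higher and 5 to 12 lower in F3 male heads (12 without D13), 10 to 18 higher and 0 to 1 lower in F14 female abdomens, and 1 to 4 higher and 0 to 1 lower in F15 male abdomens. Of the 4 CYP4AB genes 0 to 1 was called in F3 male heads and 0 to 1 in the difference between generations, CYP4AB14 without D13 in both. CYP4AB21 in diploid male heads between generations turned to 0.043 without D13, against −0.98 at the lowest. At counts of 0 to 16 per library, as for CYP4AB14 in diploid F14 and triploid F2 female abdomens, depth limits the precision of a fold change. The same holds for CYP4AB21 in triploid F2 female abdomens, at 0 to 11 counts per library.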
